A study of Homo sapiens with 8 samples.

Results

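The RNA of 9 genes was measured: *ME1*, *PGD*, *TKT*, *TALDO1*, *TXN*, *TXNRD1*, *SRXN1*, *PRDX1* and *NQO1*. They were chosen by symbol as a named set around NADPH supply and the thioredoxin system, with earlier results of these data known. The data are RNA-seq libraries of HCT116, an adherent line from a human colorectal carcinoma, and of NCI-H716, a colorectal line with neuroendocrine features. For both there were 2 control libraries and 2 libraries of cells treated with Z325 (ZINC000101867325), a compound selected by docking against the FGFR kinases. The sample titles call the treated libraries "Test", and the study's text ties them to Z325. About 100 cells went into each reaction, and the study set a single concentration for its later experiments, without a separate dose or treatment time for the RNA-seq. The study calls the duplicates biological, but the labels do not name separate cultures, so p-values measure the spread between these libraries. All 9 genes were among the 63241 genes listed for NCI-H716. The HCT116 table used here covers chromosomes 1 to 8 and the start of chromosome 9, so only 4 of the 9, *ME1*, *PGD*, *TKT* and *PRDX1*, were among its 28043 genes.

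NADPH is the electron donor that reductive defence and biosynthesis share. In the cytosol it is regenerated by the oxidative pentose phosphate pathway, in which *PGD* catalyses an NADPH-yielding step, and by malic enzyme, encoded by *ME1*. Transketolase (*TKT*) and transaldolase (*TALDO1*) link that pathway back to glycolysis. Thioredoxin reductase (*TXNRD1*) passes electrons from NADPH to thioredoxin (*TXN*), which in turn restores peroxiredoxin 1 (*PRDX1*), a peroxide-removing enzyme, while sulfiredoxin (*SRXN1*) repairs peroxiredoxins that have been over-oxidized. *NQO1* reduces quinones with NADH or NADPH. Several of these genes are textbook targets of the transcription factor NRF2, which binds antioxidant response elements.

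Library totals ran from 10210272 to 19738881 expected counts in NCI-H716. In HCT116 they were 13183792 to 13396225 counts in 3 libraries and 3434620 in Z325 replicate 2, all for the listed chromosomes only. Levels below are CPM, read counts scaled by library total and TMM factor, and a gene is called where edgeR's quasi-likelihood test gave an adjusted p under 0.05 over all genes tested in that line. Of the 3 epithelial and intestinal markers listed in HCT116, *EPCAM* stood at 1424 to 1655 CPM. *VIL1* was at no more than 0.469 CPM and *CDH17* at no more than 0.573 CPM. The leukocyte, fibroblast and endothelial lists summed there to at most 2.01 CPM. The neuroendocrine list, with 2 genes listed in HCT116, summed to 20.5 to 22.5 CPM in controls and 14.6 to 17.8 CPM after Z325. All of it came from *SCG2*, which was called in neither line. Its log2 fold change was -0.42 in HCT116 (SE 0.28, edgeR adjusted p = 0.406). In NCI-H716 it was 0.53 (SE 0.21, edgeR adjusted p = 0.246), from control levels of 22.3 and 29.96 CPM. NCI-H716 carried *KRT8* at 274 to 361 CPM and the neuroendocrine marker *CHGA* at 92.8 to 110 CPM, but *CDH1* at no more than 0.53 CPM and *KRT20* at no more than 0.452 CPM. *COL3A1* stood at 244 and 265 CPM in controls and 311 and 353 CPM after Z325, while *LUM* stood at 277 and 226 CPM and then 199 and 117 CPM. Their fibroblast list summed to 566 to 597 CPM in controls and 528 to 559 CPM after Z325, with *COL1A1* at or near 0. In NCI-H716 the neuroendocrine list summed to 823 to 932 CPM in controls and 1060 to 1280 CPM after Z325. The epithelial list there summed to 896 to 931 and 766 to 805 CPM, and the leukocyte and endothelial lists to at most 4.17 CPM. The part of these lists in the results below was not tested. In such bulk samples, fewer cells of a kind and less RNA per cell cannot be told apart.

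Promoter sequence is given as a description, and its part in the changes below was not tested. RefSeq promoters (GRCh38.p14, 250 bases before to 50 after the start) were found for 8 of the 9 genes, 9 promoters in all, with no entry for *PRDX1*. The core of the antioxidant response element, TGACNNNGC or GCNNNGTCA on the other strand, was present in 4 of these 9 promoters, those of *ME1* and *PGD* and both of *TXNRD1*, against 13.3% of all 35116 promoters. An AP-1 site, TGANTCA on either strand, was present in 1 of 9, against 7.71% of all promoters, and it overlaps the upstream core match of *ME1*. The windows are shown because *ME1* and *TXNRD1* were called in the results that follow while *PGD* was not. Each is written in the gene's own direction, with the core match in capitals.
ME1, chr6:83431170-83431198, minus strand, 137 bases before the start: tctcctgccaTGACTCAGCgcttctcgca
PGD, chr1:10398853-10398881, plus strand, 201 bases before the start: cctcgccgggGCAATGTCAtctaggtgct
TXNRD1, chr12:104215670-104215698, plus strand, 99 bases before the start: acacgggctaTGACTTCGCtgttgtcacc
TXNRD1, chr12:104215761-104215789, plus strand, 8 bases before the start: gcgtccttcgGCTCCGTCAgttcccacag
TXNRD1, second promoter, chr12:104286920-104286948, plus strand, 102 bases before the start: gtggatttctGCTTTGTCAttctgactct
*ME1* has a further core match just after its start. A match to these letters is a description of the sequence and not a measured binding site. *NQO1* and *SRXN1*, which were also called in the results that follow, had no match within this window. Neither had *TKT*, *TALDO1* or *TXN*.

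In NCI-H716, 4 of the 9 genes rose after Z325: *ME1*, *TXNRD1*, *SRXN1* and *NQO1*. Across all 14142 genes tested in that line, 0.403% were called higher and 0.099% lower, 0.502% in either direction, and none of the 9 was called lower. The other 5 were not called, although both Z325 libraries lay above both controls for every one of the 9, an arrangement found for 24.3% of all genes tested, while for 25.1% both lay below. In HCT116, 1 of the 4 listed genes rose, *ME1*, where of 6491 genes tested 2.83% were called higher and 2.94% lower, 5.78% in either direction. Both Z325 libraries lay above both controls for *ME1* alone of the 4 and below them for *TKT* alone, against 24.8% and 29.0% of genes tested. Summed over the genes, the 9 took 0.313% and 0.301% of NCI-H716 control counts and 0.515% and 0.507% of Z325 counts. The 4 listed in HCT116 took 0.359% and 0.358% of control counts and 0.406% and 0.393% of Z325 counts.

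*ME1* (ENSG00000065833, GRCh38 chromosome 6, 83210402 to 83431051, minus strand) was the member called in both lines. In HCT116 its level was 199.7 and 225 CPM in the controls and 492 and 514 CPM after Z325. The treated libraries lay well above the controls, with a 2.37-fold rise (95% interval 1.92 to 2.92, log2 fold change 1.24, SE 0.13, edgeR adjusted p = 0.00288). In NCI-H716 the level was 63.0 and 82.1 CPM in controls and 177 and 189 CPM after Z325. The groups were again apart, with a 2.52-fold rise (1.91 to 3.34, log2 fold change 1.34, SE 0.18, edgeR adjusted p = 0.0115). Among all genes ranked by fold change, *ME1* was at rank 349 of 6491 in HCT116 and 234 of 14142 in NCI-H716.

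The pentose phosphate genes gave smaller values. The edgeR fit of each line, with all its libraries and no term for replicate number, called none of them. *PGD* (ENSG00000142657, chromosome 1, 10398592 to 10420511) was at 118 and 145 CPM in HCT116 controls and 122 and 142 CPM after Z325, so the groups overlapped (log2 fold change -0.00032, SE 0.17, 95% interval of the fold 0.764 to 1.31). In NCI-H716 it was at 60.1 and 73.3 CPM in controls and 91.4 and 106 CPM after Z325. The treated libraries were higher, 1.48-fold (1.12 to 1.96), and the edgeR adjusted p was 0.183. Without Z325 replicate 1 the *PGD* log2 fold change was 0.67. *TKT* (ENSG00000163931, chromosome 3, 53224712 to 53256052) showed opposite signs in the lines. HCT116 controls held 95.5 and 111 CPM and Z325 libraries 69.8 and 77.4 CPM, both below the controls (log2 fold change -0.49, SE 0.18, edgeR adjusted p = 0.137). NCI-H716 controls held 71.9 and 60.5 CPM and Z325 libraries 81.0 and 81.3 CPM, both above (0.29, SE 0.17, edgeR adjusted p = 0.421). *TALDO1* (ENSG00000177156, chromosome 11, 747415 to 765012), measured in NCI-H716 alone, was at 125 and 109 CPM in controls and 138 and 161 CPM after Z325 (0.35, SE 0.17, edgeR adjusted p = 0.318).

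**Figure D1:**
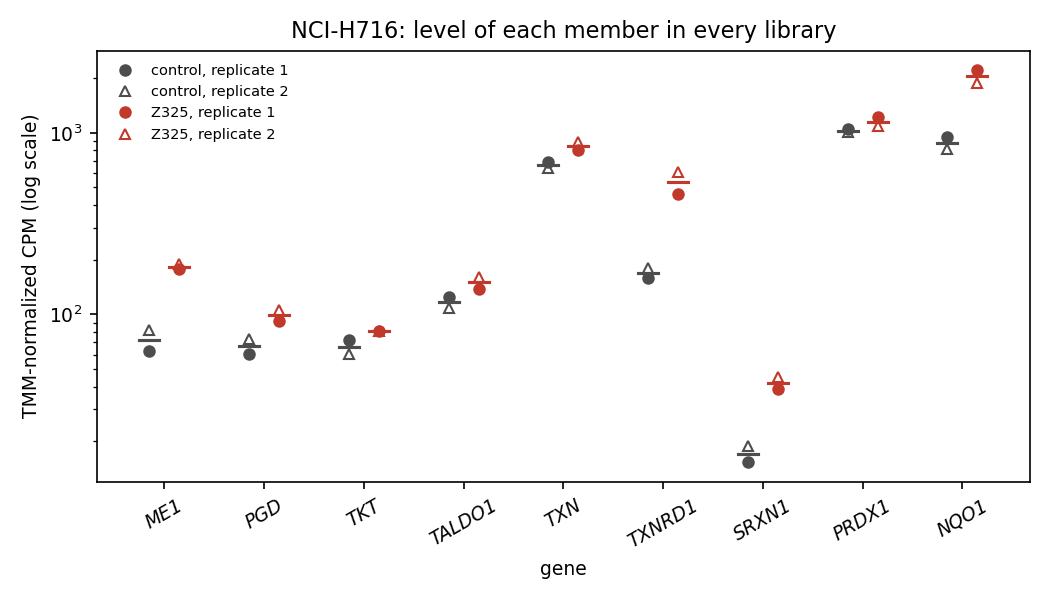
Level of each of the 9 genes in the 4 NCI-H716 libraries, as TMM-normalized CPM on a log axis; grey is control, red is Z325, circles are replicate 1, triangles replicate 2 and bars the group mean. Both red points lie above both grey points for every gene, with the widest gap for *TXNRD1*, from 159 and 179 CPM to 463 and 605 CPM.

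**Figure D2:**
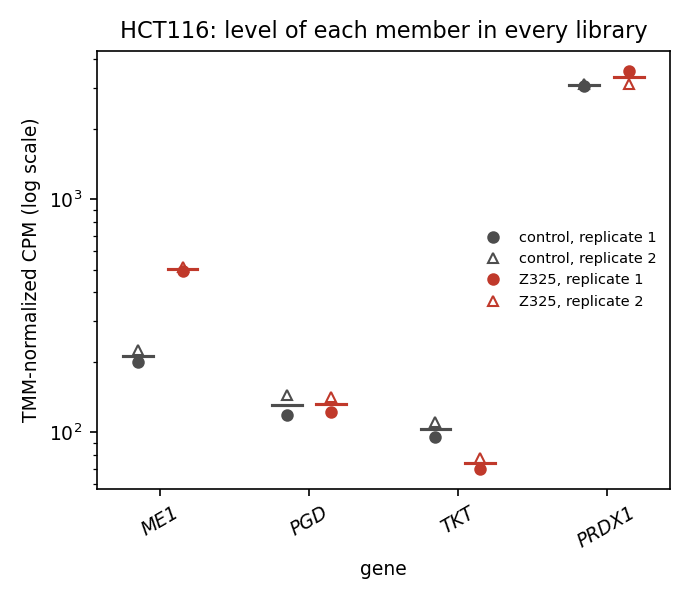
Level of the 4 genes listed for HCT116 in its 4 libraries, with the same symbols and log axis of TMM-normalized CPM. *ME1* is separated upwards and *TKT* downwards, while the groups of *PGD* and *PRDX1* overlap.

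The thioredoxin arm, measured mainly in NCI-H716, moved at its reductase and its repair enzyme. *TXNRD1* (ENSG00000198431, chromosome 12, 104215779 to 104350307) went from 159 and 179 CPM in controls to 463 and 605 CPM after Z325. That was the widest change of the 9, a 3.16-fold rise (2.39 to 4.18, log2 fold change 1.66, SE 0.18, edgeR adjusted p = 0.00299), at rank 134 of 14142 genes by fold change. *SRXN1* (ENSG00000271303, chromosome 20, 646615 to 653200), the least abundant member, went from 15.4 and 18.7 CPM to 38.9 and 45.2 CPM. Its rise was 2.47-fold (1.79 to 3.41, log2 fold change 1.31, SE 0.21, edgeR adjusted p = 0.0245). Without control replicate 1 the *SRXN1* log2 fold change was 1.17 and the edgeR adjusted p 0.103. Of its exon bases, 90.7% are shared with a second protein-coding annotation on the same strand, which had a count of 0 in all 4 libraries, so its values are uncertain.

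The substrates of those enzymes were not called. *TXN* (ENSG00000136810, chromosome 9, 110243810 to 110256507) stood at 692 and 639 CPM in controls and 800.5 and 884 CPM after Z325 (log2 fold change 0.34, SE 0.16, edgeR adjusted p = 0.302). The treated libraries were higher and the 95% interval of the fold ran from 0.996 to 1.61. *TXN* has 7 named pseudogenes, which could share its reads. *PRDX1* (ENSG00000117450, chromosome 1, 45510914 to 45542732) was at 1048 and 1004 CPM in NCI-H716 controls and 1214 and 1084 CPM after Z325 (0.16, SE 0.16, edgeR adjusted p = 0.634). In HCT116 it was at 3054 and 3136 CPM in controls and 3569 and 3135 CPM after Z325, and the groups overlapped (0.12, SE 0.13, edgeR adjusted p = 0.646). The intervals of its fold, 0.882 to 1.42 and 0.883 to 1.33, leave room for changes in either direction. *PRDX1* shares 29.8% of its exon bases with *MMACHC* on the other strand, whose counts of 28 to 240 were far below the 10357 to 45640 of *PRDX1*.

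*NQO1* (ENSG00000181019, chromosome 16, 69706996 to 69726668) combined a high level with a call. It was at 945 and 810.5 CPM in NCI-H716 controls and at 2208 and 1878 CPM after Z325. The treated libraries lay far above the controls, with a 2.33-fold rise (1.79 to 3.02, log2 fold change 1.22, SE 0.17, edgeR adjusted p = 0.0127). Without control replicate 2 the log2 fold change was 1.13 and the edgeR adjusted p 0.0540. An lncRNA on the other strand shares 19.3% of the exon bases and had counts of 4 to 15. All 4 NCI-H716 calls were lost when limma was fitted to log2 FPKM or TPM in place of counts. Those 4 fits called 0 of the 9 genes and 6 to 8 genes in the whole line. At an unadjusted limma p under 0.05 they had 6 or 7 of the 9, and 1588 to 1889 genes of the line.

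**Figure D3:**
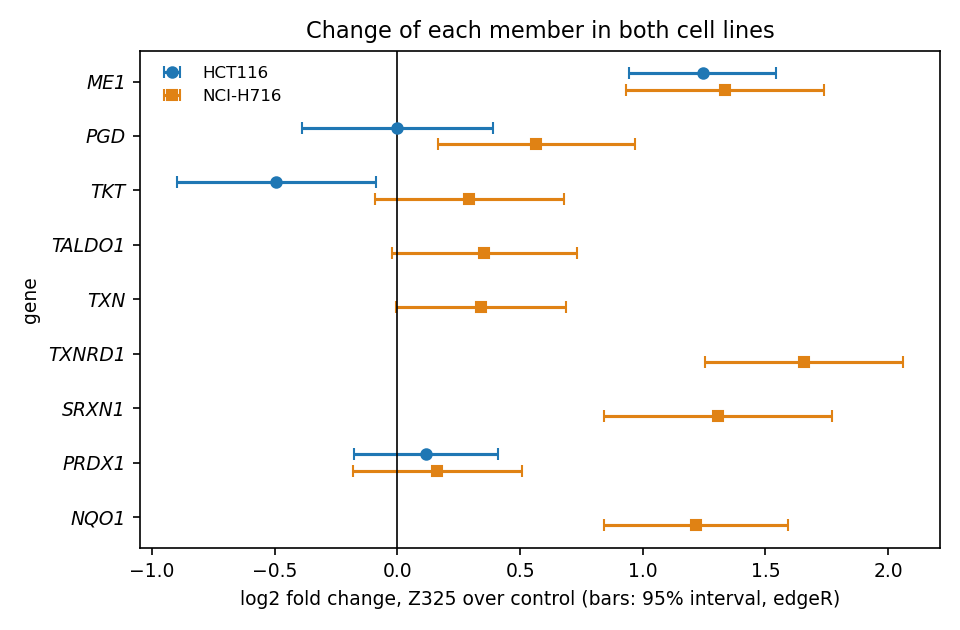
Log2 fold change of each gene, Z325 over control, with its 95% interval from edgeR, in HCT116 (blue circles, 4 genes) and NCI-H716 (orange squares, 9 genes). The intervals of *ME1* in both lines and of *TXNRD1*, *SRXN1* and *NQO1* all have a lower end of at least 0.84, whereas those of *PRDX1* include 0 in both lines.

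Per unit of length, the 9 genes spanned a wide range and their order changed after Z325. On the TPM scale of the NCI-H716 controls, *PRDX1* was highest (1101 and 1094 TPM), followed by *TXN* (1035 and 1007), *NQO1* (861 and 720.0), *TALDO1*, *TXNRD1* (55.7 and 70.2), *PGD*, *TKT*, *ME1* (15.3 and 20.1) and *SRXN1* (5.05 and 6.21). No neighbours in that order overlapped over the libraries. After Z325, *NQO1* was highest at 1796 and 1420 TPM, and *TXN* and *PRDX1* behind it overlapped. *TXNRD1*, at 162 and 222 TPM, overlapped *TALDO1*, at 122 and 173 TPM; in controls *TXNRD1* had been the lower of the pair. *ME1* moved from below *PGD* and *TKT* to above both, at 41.9 and 43.98 TPM. In HCT116, TPM computed over the listed genes gave the order *PRDX1*, *ME1*, *PGD* and *TKT* in both groups, with means of 5418, 187, 116 and 32.0 TPM in controls and 5520, 419, 110.1 and 21.5 TPM after Z325, and no neighbours overlapped. TPM of the lines are not comparable, because the tables were made separately.

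**Figure D4:**
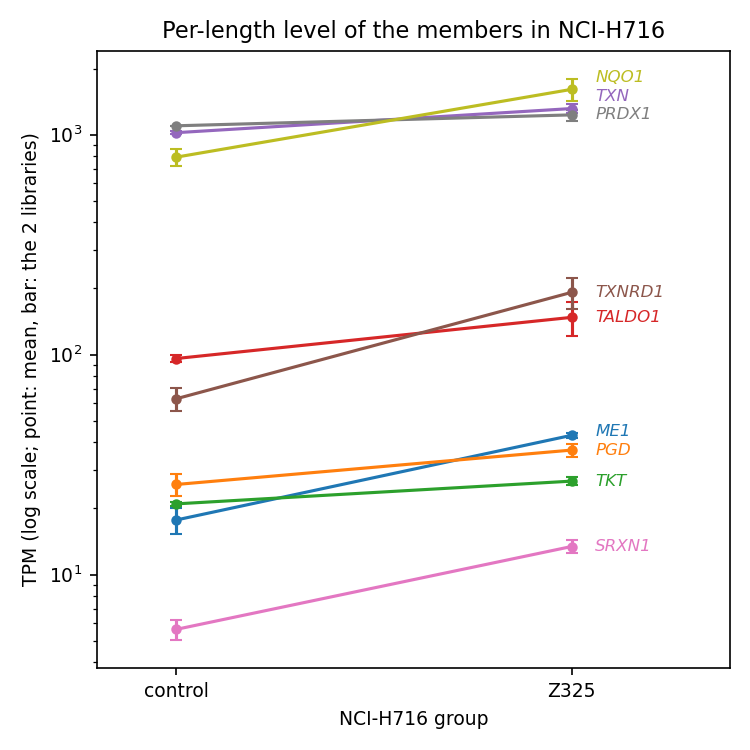
Mean TPM of the 9 genes in NCI-H716 control and Z325 libraries on a log axis, with bars spanning the 2 libraries of each group. *NQO1* crosses *TXN* and *PRDX1*, *TXNRD1* crosses *TALDO1*, and *ME1* crosses *PGD* and *TKT*.

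RSEM also reports an abundance-weighted transcript length per gene, which tells whether the mix of transcripts shifted. For *NQO1* it was 1061 and 1107 bases in NCI-H716 controls and 1165 and 1222 bases after Z325, longer in both, as for 15.6% of genes tested. For *TALDO1* it was 1183 and 1143 bases in controls and 1088 and 928 bases after Z325, shorter in both, as for 14.5% of genes tested. The mean moved by 10.1% for *NQO1* and by -13.3% for *TALDO1*. *PRDX1* was also shorter in both, by -0.312%, and the other 6 overlapped or did not vary. The limma fits on FPKM or TPM put *TALDO1* as high as 0.67 and *NQO1* as low as 1.02 on the log2 scale, and the part of transcript length in that was not tested.

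Whether the lines responded differently was tested as the interaction of line and treatment over the 8 libraries, for the 4 shared genes. None of the 4 was called by edgeR, where 5 of 7642 genes were, 0.0654%. At an unadjusted edgeR p under 0.05 there were 2 of the 4, and 1094 of the 7642. DESeq2 called 0 of the 4, and 108 genes in all. At an unadjusted DESeq2 p under 0.05 there was 1 of the 4, and 987 genes in all. The difference of log2 fold changes, HCT116 minus NCI-H716, was -0.77 for *TKT* (95% interval -1.31 to -0.24, edgeR adjusted p = 0.210) and -0.56 for *PGD* (-1.09 to -0.02, edgeR adjusted p = 0.332). For *ME1* it was -0.08 (-0.56 to 0.40, edgeR adjusted p = 0.952), and for *PRDX1* it was -0.03 (-0.46 to 0.39). The interval for *ME1* excludes a difference beyond 0.56 in either direction.

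Genes of the same pathways outside the 9 gave a mixed picture. Of 21 other NADPH-producing and pentose phosphate genes, 10 were tested in HCT116, 2 were called higher and 0 lower, with a median log2 fold change of 0.49 against -0.03 over all genes. These were *NADK2*, the mitochondrial NAD kinase (33.3 and 32.4 CPM to 72.0 and 72.8 CPM, 1.14, SE 0.20, edgeR adjusted p = 0.0177), and *MTHFD2*, a mitochondrial folate enzyme (543 and 525 CPM to 830.2 and 769.5 CPM, 0.58, SE 0.12, edgeR adjusted p = 0.0340). Both are uncertain where opposite-strand genes overlap their exons, 7.28% of bases for *NADK2* (*SKP2*) and 11.6% for *MTHFD2* (*SLC4A5*). In NCI-H716, 19 were tested and edgeR called 0, with a median of 0.09 against -0.01 over all genes. At an unadjusted edgeR p under 0.05 there were 4 of the 19, and 2382 of all 14142 genes tested. DESeq2 called 2 of the list, and 326 genes in the whole line. The smallest adjusted p was that of *ALDH1L2*, a mitochondrial folate enzyme that yields NADPH, with a log2 fold change of 1.11 (edgeR adjusted p = 0.0743). *MTHFD2* there had a log2 fold change of 0.76 (edgeR adjusted p = 0.0863) and *NADK2* of 0.08 (0.884).

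Of 23 other thioredoxin, peroxiredoxin and glutaredoxin genes, 22 were tested in NCI-H716, 0 were called higher and 1 lower, with a median log2 fold change of -0.17. The gene that fell was *TXNIP*, which encodes a thioredoxin-binding inhibitor. Its level was 185 and 202 CPM in controls and 67.0 and 66.1 CPM after Z325 (-1.54, SE 0.16, edgeR adjusted p = 0.00232), and the call was lost in the 4 limma fits (limma adjusted p = 0.0676 to 0.134). In HCT116 6 were tested, 0 were called higher and 1 lower, with a median of 0.31. That was *RRM2*, a subunit of ribonucleotide reductase, an enzyme that draws on thioredoxin (1723 and 1927 CPM to 1055 and 1051 CPM, -0.79, SE 0.12, edgeR adjusted p = 0.0134). *RRM2* had a log2 fold change of -0.70 in NCI-H716 (edgeR adjusted p = 0.0986), and *PRDX2*, another cytosolic peroxiredoxin that shares 12.1% of its exon bases with an opposite-strand lncRNA, of -0.94 (0.174).

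Of 14 other NADPH-using or related oxidoreductases, 14 were tested in NCI-H716 (median 0.32) and 8 in HCT116 (median 0.33). Of these, 1 was called higher in each line and 0 lower. In NCI-H716 it was *PTGR1*, which reduces prostaglandins and reactive aldehydes (19.4 and 12.1 CPM to 43.5 and 45.1 CPM, 1.48, SE 0.24, edgeR adjusted p = 0.0266), a call also lost in the 4 limma fits (limma adjusted p = 0.119 to 0.195). In HCT116 it was *NQO2*, a quinone reductase related to *NQO1* (269 and 336 CPM to 483 and 447 CPM, 0.62, SE 0.15, edgeR adjusted p = 0.0475), with 12.0% of its exon bases shared with an lncRNA on the same strand. Of 17 glycolysis genes, all tested in NCI-H716, edgeR called 0, with 5 at an unadjusted p under 0.05 and 0 called by DESeq2; 13 had a negative log2 fold change and the median was -0.31. Over all genes tested in that line, 2382 of 14142 had an unadjusted p under 0.05 and 7160 a negative log2 fold change. Only 2 were tested in HCT116, and *ENO1*, enolase, was called lower (3431 and 4531 CPM to 2333 and 2525 CPM, -0.71, SE 0.16, edgeR adjusted p = 0.0394), whereas *HK2* was at 0.21 (0.685). In HCT116 the calls of *NADK2*, *MTHFD2*, *RRM2*, *NQO2* and *ENO1* were each lost without control replicate 1 and without control replicate 2. Respective log2 fold changes without a library were 1.11 to 1.16, 0.51 to 0.66, -0.88 to -0.72, 0.47 to 0.78 and -0.91 to -0.51. Fits that kept all libraries lost them too, the lowest number called there being 0 for each of their lists. Over 15 alternative fits the calls were lost in 6, 6, 5, 7 and 6, in the same order. Leaving out each NCI-H716 library in turn gave log2 fold changes of 0.83 to 1.37 for *ALDH1L2* and 0.66 to 0.88 for *MTHFD2*. For *RRM2* they were -0.80 to -0.59.

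The genes whose profile lay nearest to the mean of the 4 shared members were sought among 2980 genes of at least 10 CPM in both lines. Likeness was the root mean square difference over the 8 libraries of log2 CPM, centred on each line's controls. The mean profile stood at 0.19 and 0.25 in the HCT116 Z325 libraries and at 0.58 and 0.61 in those of NCI-H716. It averages unlike genes, with HCT116 log2 fold changes of 1.24 for *ME1*, -0.00032 for *PGD*, -0.49 for *TKT* and 0.12 for *PRDX1*. Nearness to this mean is therefore not likeness to any single member. The nearest was *NFE2L2*, which encodes NRF2, at a difference of 0.0678, followed by *SLU7* (0.0869), *DCUN1D1* (0.0888), *TES* (0.0899) and *ACBD3* (0.0939). These differences ran from 0.0678 to 0.0939, while the SEs of the genes' log2 fold changes ran from 0.12 to 0.19. The order of these genes is therefore uncertain and was not tested. *NFE2L2* itself was not called, with a log2 fold change of 0.18 in HCT116 (edgeR adjusted p = 0.455) and 0.48 in NCI-H716 (0.1996).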

How the data were processed

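For NCI-H716 the authors deposited RSEM tables per library with expected counts, TPM and FPKM per gene. The HCT116 table, as deposited, holds raw counts per gene and library together with exon lengths. It ends on chromosome 9, 4 broken lines were left out, and its TPM and FPKM were computed here. The methods describe SMART-Seq2, STAR and RSEM on GRCh38, whereas the submitters' processing notes name Bowtie2 2.5.0, featureCounts and hg38; which made which table is not given in the sources used here. Handling of reads shared between genes is not given either, and the larger exon overlaps of genes named as called are given in the text.

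Expected counts were rounded. Each line was fitted in edgeR 4.0.16 (TMM, filterByExpr, quasi-likelihood test, Benjamini-Hochberg adjustment over all genes tested), on 6491 genes in HCT116 and 14142 in NCI-H716, and the difference between lines as an interaction over 8 libraries and 7642 genes. The study's own test on FPKM was replaced by this count test, with limma 3.58.1 on log2(FPKM + 1), log2(FPKM + 0.1) and log2(TPM + 1) as alternatives, beside DESeq2 1.42.0, other filters and scaling, a replicate block, thinning and leaving out each library. The shallowest library, HCT116 Z325 replicate 2, had 3434620 counts. With 2 against 2 libraries an exact permutation test cannot go below p = 0.333, so none is given. The steps were tested on simulated data.

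The 9 genes and the 4 related lists were chosen with earlier results of these data known. All 9 were named, with every list gene at an adjusted p under 0.05, up to 5 more per list by smallest adjusted p, and the 5 nearest profiles; *NNT* and the single marker genes were named outside that rule after their values were seen. Gene positions and exon overlaps are from GENCODE v44 (GRCh38), and promoters from RefSeq. Fits were run in R 4.3.3 and tables and plots made in Python 3.11.15.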

Additional observations from a re-analysis of the deposited data

Results flagged for a closer look

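*TKT* stood out because the sign of its log2 fold change differed between the lines: both HCT116 Z325 libraries lay below both controls and both NCI-H716 Z325 libraries lay above both. The 95% interval of that log2 fold change was -0.90 to -0.09 in HCT116. In NCI-H716 it was -0.09 to 0.68, which includes 0, so the direction there is uncertain. The difference of log2 fold changes, HCT116 minus NCI-H716, was -0.77 (SE 0.24, unadjusted p = 0.00837), which did not pass adjustment over all genes in edgeR (adjusted p = 0.210). Leaving out each library in turn moved it between -0.96 and -0.66.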

How the results depend on the processing

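The alternatives gave 690 further values for 47 results. Of these, 499 kept their direction and side of the threshold, or for counts stayed within 1.5 times; 56 lost a call, 28 gained one, 16 changed sign and 91 counts moved. The cause of these shifts was not tested. *ME1* was called in HCT116 under all 15 alternatives (log2 fold change 1.15 to 1.32), and no member changed sign in NCI-H716 in 130 such values. The members called in NCI-H716, 4 by edgeR, were 0 in each of the 4 limma fits, 1 with all 8 libraries in 1 fit (which holds only the 4 shared genes), and 3 to 5 when a library was left out: *SRXN1* was lost without control replicate 1 and *NQO1* without control replicate 2, and *PGD* was added without Z325 replicate 1 (adjusted p = 0.0416). Genes called in HCT116, 375, were 722 with DESeq2, 37, 47 and 46 with limma on log2(FPKM + 0.1), log2(FPKM + 1) and log2(TPM + 1), 35 at a mean FPKM of at least 1, 615 at a minimum of 10 counts, 683 with no filter and 23 to 1076 without a library. Genes called in NCI-H716, 71, were 326 with DESeq2, 19 with all 8 libraries, 6, 6, 6 and 8 in the same limma fits, 787 with no filter and 62 to 1398 without a library. Genes whose response differed between lines, 5, were 108 with DESeq2, 26 at a minimum of 10 counts, 106 with no filter, 17 after thinning and 0 to 63 without a library. DESeq2 and no filter moved the median log2 fold change of all NCI-H716 genes to 0.123 and 0.147.

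Same-numbered libraries correlated at -0.0217 in HCT116 and 0.286 in NCI-H716, and the labels do not say that a number marks a shared batch, so the numbers were not taken as pairs. With the replicate block, 2397 genes and 6 members were called in NCI-H716, *PGD* (adjusted p = 0.000531) and *TALDO1* (0.0370) being added, 7 genes each of the thioredoxin and glycolysis lists were called there, the most under any alternative, 12 genes differed between lines, and *PGD* in HCT116 was at 0.00682.

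Values near 0 changed sign. *PGD* in HCT116 was at 0.0123 with DESeq2, 0.0193 with all 8 libraries, 0.0225 after thinning and -0.142 to 0.143 without a library. *HK2* in HCT116 was at -0.00905 without Z325 replicate 2 (-0.00905 to 0.431 without a library). The difference between lines was 0.00110 for *ME1* and 0.0478 for *PRDX1* with DESeq2, 0.00343 and 0.0519 at a minimum of 10 counts, 0.0234 and 0.0136 after thinning, and -0.288 to 0.0452 and -0.244 to 0.0543 without a library. With HCT116 thinned to its shallowest library, 430 genes were called.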

Other observations

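Some genes of the related lists were near 0 in HCT116 while well measured in NCI-H716. *NNT*, a mitochondrial source of NADPH, had counts of 4 and 0 in HCT116 controls and 0 and 0 after Z325, whereas NCI-H716 held 75.6 and 79.4 CPM in controls and 84.8 and 75.1 CPM after Z325. *TXNIP* had counts of 0 and 4 in HCT116 controls and 0 and 2 after Z325. The tables of the lines were made separately, and the levels were not tested against each other.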
